A study of Mus musculus with 778 samples.

Results

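The genes described here are 8 members of the machinery for de novo DNA methylation in the mouse oocyte, chosen by name from the 23201 genes of a single-cell RNA-seq count table. They are the DNA methyltransferases *Dnmt3a* and *Dnmt3b*, their cofactor *Dnmt3l*, the histone H3 lysine 4 (H3K4) demethylases *Kdm1b* and *Kdm1a*, the histone H3 lysine 36 (H3K36) methyltransferases *Setd2* and *Nsd1*, and *Cxxc1*, which encodes the CpG-binding subunit of the SET1 complexes that methylate H3K4. All 8 had UMIs in every stage, and all 8 reached 10 counts per 1000000 (CPM) in at least 1 stage. A UMI is a random tag by which copies of 1 cDNA molecule are counted once, and CPM is the share of all UMIs that a gene took.

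The study followed chromatin and gene expression in oocytes during their growth in the ovary, and the question for these genes is how their transcripts stood at each stage of growth. All oocytes came from wild type female ICR mice and were picked singly by hand after washing. Non-growing oocytes (NGO, 46 cells, diameter under 20 μm) were taken from mice of 3 to 4 days. Growing oocytes of 30 to 45 μm (GO1, 51 cells), 50 to 55 μm (GO2, 26 cells) and 60 to 65 μm (GO3, 44 cells) and fully-grown oocytes of over 70 μm (FGO, 56 cells) were taken from mice of 3 to 4 weeks. Oocyte stage and mouse age cannot be told apart in any comparison of NGO with another stage. The columns of the 223 cells give the stage and no library. Each stage therefore stood as 1 pooled sample, without replicates and without a test between stages. Intervals in the text are exact and cover counting error only. Those of co-detection are over cells and take the cells of a stage as independent, which the data cannot show. The study reported from spike-in RNA that relative mRNA abundance was higher in GO1 than in NGO. Levels here are shares of all UMIs, so a rise or fall in CPM need not hold for transcripts per oocyte.

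In female mice, DNA methylation is erased in primordial germ cells and laid down again after birth, while the oocyte grows. DNMT3A does most of this work in oocytes with DNMT3L, which has no catalytic activity of its own. The complex binds histone H3 that is unmethylated at lysine 4 and is kept away where that residue is methylated, so removal of H3K4 methylation by KDM1B permits methylation at imprinted genes, and H3K36 methylation, which SETD2 places over transcribed genes, marks the regions that become methylated.

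Stage totals lay between 24976634 and 64311908 UMIs, and single cells held 22279 to 3898137 UMIs. The median cell of GO1 had 110146 UMIs, against 540432 to 972294 in the other stages. The 10 deepest cells held 80.4% of the UMIs of GO1 and 73.2% of those of GO2, so a sum over either stage rests on few cells, and for the 8 genes values over single cells are given beside the sum. Cells numbered 42 to 51 of GO1 stood apart from the other 41 GO1 cells, and cells 38 to 56 of FGO partly so from the other 37. The cell numbers are those of the table, and these runs were chosen after the values of *Dnmt3a* and *Dnmt3l* in them were seen. The 10 cells of the GO1 run held 22279 to 162906 UMIs each and had 595 to 1007 CPM of *Dnmt3a*, against 37.8 to 605 CPM in the other GO1 cells. Of these 10 cells 8 had no UMI of *Dnmt3l*, and the highest had 14.3 CPM. The 19 cells of the FGO run had at most 18.8 CPM of *Dnmt3l*, where the other FGO cells had 0 to 121.1 CPM, and had a median of 303 CPM of *Dnmt3a* against 228 CPM. The library of each cell is not given in the table, so library, depth and oocyte cannot be told apart for these cells, and results that rest on them are given with and without them. The 12 oocyte markers were all detected in every stage and summed to 30855, 16657, 17625, 19277 and 24857 CPM from NGO to FGO. From NGO to GO1, 5 of these 12 fell and 1 rose by the size rule given below, beside 25.7% of all genes measured downward and 20.6% upward. The 10 granulosa cell markers summed to 14.5, 44.1, 36.2, 35.7 and 20.7 CPM from NGO to FGO, highest in GO1 and GO2 as *Dnmt3l* was. Both granulosa markers that reached 10 CPM in NGO or GO1 passed upward there by the size rule given below, *Cyp19a1* from 1.11 to 16.3 CPM and *Nr5a2* from 6.91 to 14.5 CPM. *Kitl* stood at 1.35 CPM in NGO and 5.49 to 7.11 CPM in the growing stages, and *Gja1* at 0.0794 CPM in NGO and 0.841 to 1.12 CPM in them. From NGO through GO1 to GO2, *Inha* (1.47, 3.59 and 6.09 CPM) and *Amhr2* (0.119, 0.224 and 0.480 CPM) also went up. *Fshr* (2.82, 2.32 and 1.52 CPM) and *Wt1* (0.437, 0.262 and 0.120 CPM) went down over these stages, and *Fshr* was highest in GO3, at 5.02 CPM. The defining markers *Amh* (at most 0.112 CPM) and *Foxl2* (at most 0.233 CPM) were near 0 in every stage. The part of granulosa RNA in the change of *Dnmt3l* was not tested. The 6 stromal markers summed to 7.98 CPM in NGO and to at most 0.653 CPM in the other stages. The 5 blood markers summed to 1.57 to 4.60 CPM, nearly all of it *Cd68*, at 4.48 CPM in NGO and 1.57 CPM in GO1. *Hba-a1* and *Hbb-b1* were listed at 0 UMIs in every stage.

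The promoter windows of the 2 members with the largest changes, *Dnmt3l* and *Kdm1b*, are shown because these genes moved in opposite directions at the onset of growth. *Dnmt3l* is known to be transcribed from different start sites in male and female germ cells, and the count table sums over all of them. Each window runs from 250 bases before a RefSeq start site to 50 bases after it and is given 5′ to 3′ on NCBIM37 (mm9). Capitals mark the E-box letters CANNTG, which read alike on both strands and are the motif of helix-loop-helix factors.
*Dnmt3l*, first start, chr10:77504782-77505081, plus strand: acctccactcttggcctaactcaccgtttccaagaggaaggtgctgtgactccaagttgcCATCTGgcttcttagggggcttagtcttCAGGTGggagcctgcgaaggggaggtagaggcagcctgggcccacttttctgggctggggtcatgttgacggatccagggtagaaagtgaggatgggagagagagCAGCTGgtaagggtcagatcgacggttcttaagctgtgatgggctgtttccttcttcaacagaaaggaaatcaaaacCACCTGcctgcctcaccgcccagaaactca
*Dnmt3l*, second start, chr10:77512337-77512636, plus strand: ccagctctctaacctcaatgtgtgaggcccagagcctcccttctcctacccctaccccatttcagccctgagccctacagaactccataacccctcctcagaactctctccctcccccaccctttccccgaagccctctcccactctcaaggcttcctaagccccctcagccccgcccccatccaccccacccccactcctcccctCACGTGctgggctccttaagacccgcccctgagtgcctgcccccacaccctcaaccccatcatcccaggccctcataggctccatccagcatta
*Dnmt3l*, last start, chr10:77517830-77518129, plus strand: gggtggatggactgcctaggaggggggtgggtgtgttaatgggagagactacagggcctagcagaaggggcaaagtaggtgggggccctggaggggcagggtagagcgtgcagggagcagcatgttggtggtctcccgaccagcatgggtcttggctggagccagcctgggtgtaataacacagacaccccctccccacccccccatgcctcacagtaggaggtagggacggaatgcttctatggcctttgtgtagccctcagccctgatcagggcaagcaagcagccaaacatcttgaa
*Kdm1b*, chr13:47138618-47138917, plus strand: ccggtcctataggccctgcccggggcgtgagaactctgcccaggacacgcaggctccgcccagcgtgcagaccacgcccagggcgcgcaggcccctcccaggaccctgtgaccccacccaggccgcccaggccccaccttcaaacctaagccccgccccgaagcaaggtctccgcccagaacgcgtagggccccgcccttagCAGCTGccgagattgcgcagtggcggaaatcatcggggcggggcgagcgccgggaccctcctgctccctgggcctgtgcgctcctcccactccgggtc
The first *Dnmt3l* window held 4 E-boxes, which 6.49% of the 32851 mouse RefSeq windows of this length equalled or passed. Its start site lies in an intron of *Aire* on the opposite strand. The second window held 1 E-box, the last held none, and the *Kdm1b* window held 1, as at least 1 occurs in 72.3% of all windows. The 3 *Dnmt3l* windows held 6, 4 and 3 CpG dinucleotides, against a median of 7 over all windows and 26 in *Kdm1b*. The windows of *Dnmt3a*, *Dnmt3b*, *Kdm1a* and *Setd2* held 18 to 47. A match of letters is a description of the window and not of a bound site.

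Between NGO and GO1, 4 of the 8 genes rose and 1 fell by the size rule used throughout, a ratio of 2-fold or more where the higher stage reached 10 CPM. Over all 8527 genes measured in that step 46.3% passed it, 20.6% upward and 25.7% downward, so passing in this step was common. In the mean over cells 4 of the 8 rose and 3 fell, *Dnmt3b* and *Cxxc1* joining *Kdm1b*. In each later step 1 of the 8 passed. *Kdm1b* fell from GO1 to GO2, where 3.14% of all genes passed (0.109% upward and 3.03% downward). It rose from GO2 to GO3, where 4.35% passed (3.34% upward and 1.01% downward). *Dnmt3l* fell from GO3 to FGO, where 5.96% passed (2.41% upward and 3.54% downward), and did not pass there in the sums without FGO cells 38 to 56. The median log2 ratio of the 8 genes was 0.52, -0.41, 0.01 and -0.19 in the 4 consecutive steps, against -0.15, -0.11, 0.08 and 0.06 over all genes measured. From NGO to FGO directly, *Dnmt3l* rose and *Kdm1b* fell, and 27.3% of all genes passed (11.3% upward and 16% downward).

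**Figure D1:**
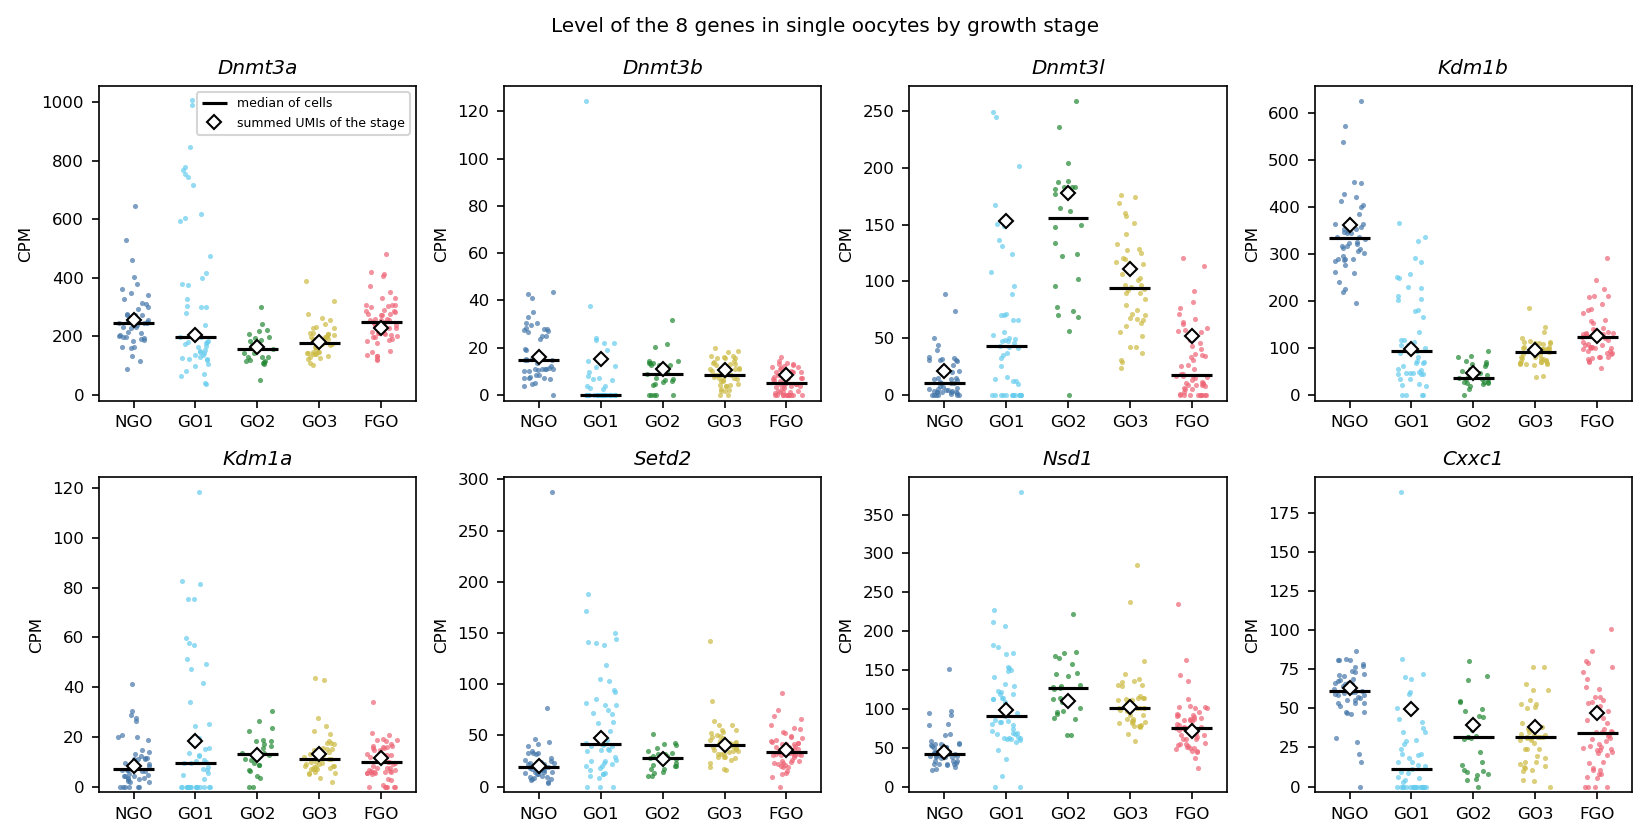
Level of the 8 genes in single oocytes, with CPM on the vertical axis and the 5 stages on the horizontal axis. Each point is 1 cell, the line is the median of the cells and the diamond is the CPM of the summed UMIs, which for *Dnmt3l* in GO1 (153.4 CPM) lies far above the median cell (42.8 CPM).

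*Dnmt3a* (NCBIM37 chromosome 12, 3806007 to 3914443, plus strand), the de novo methyltransferase that oocytes depend on, passed the size rule in no step of the sums. In NGO the lowest, median and highest cells had 87.3, 245 and 645 CPM. GO1 cells had 37.8, 197 and 1007 CPM and GO2 cells 51.02, 157.8 and 302 CPM. GO3 cells had 101.6, 179 and 389 CPM and FGO cells 119.1, 249 and 481 CPM. All 223 cells held its UMIs, and the ranges of all stages overlapped, with the widest range in GO1. The summed level from NGO to FGO was 257 (251 to 264), 206 (200.4 to 211), 163 (158.3 to 168), 181 (177 to 185) and 229 (225 to 233) CPM. The order NGO, FGO, GO1, GO3, GO2 had steps of 1.11-fold to 1.14-fold between neighbours, each above counting error and each between stages whose middle cells (lower to upper quartile) overlapped. The step from NGO to GO1 depended on how cells were weighted, with a log2 ratio of -0.32 in the sums and 0.28 in the mean over cells. Without GO1 cells 42 to 51 these values were -0.44 and -0.35, so the upward value of the mean rested on that run. The run was chosen after its *Dnmt3a* values were seen, so a lower mean without it follows from that choice. From GO1 to GO2 the log2 ratio was -0.33 in the sums and -0.98 in the mean over cells, and it was past 2-fold at -1.49 in the shallower cells, while the sums gave -0.22 without the run. Of the 51 GO1 cells, 8 lay above the highest NGO cell, all of them in the run, and 5 below the lowest. The 25 shallower GO1 cells summed to 439 CPM (405 to 475) and the 26 deeper ones to 193 CPM (188 to 198). The run supplied 8 of the shallower and 2 of the deeper cells, and without it the values were 241 and 187.9 CPM.

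*Dnmt3b* (chromosome 2, 153475186 to 153513466, plus strand), the related methyltransferase that acts mainly in the early embryo, was low at every stage. Its summed level from NGO to FGO was 16.1 (14.6 to 17.8), 15.1 (13.6 to 16.6), 10.8 (9.56 to 12.2), 10.7 (9.83 to 11.7) and 8.41 (7.72 to 9.15) CPM. NGO and GO1 did not differ beyond counting error, nor did GO2 and GO3. No UMI was found in 30 of the 51 GO1 cells, in 12 of the 56 FGO cells, in 5 GO2 cells, in 2 GO3 cells and in 1 NGO cell. The median cell from NGO to FGO had 14.7, 0, 9.03, 8.66 and 5.14 CPM. In the mean over cells *Dnmt3b* was 2.33-fold lower in GO1 than in NGO and so passed the size rule, which the ratio of the sums, 1.07-fold, did not. Without GO1 cells 42 to 51 the mean was 1.97-fold lower and did not pass. The log2 ratio of the sums was -2.27 without the 10 deepest cells of each stage and -2.11 in the shallower cells. It was -1.18 in cells of 100000 to 1000000 UMIs, -0.82 with 26 cells per stage and 0.03 in the deeper cells. The highest GO1 cell, at 124.5 CPM, was among the shallower cells of the stage, which held 6 UMIs of the gene in all.

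*Dnmt3l* (chromosome 10, 77504692 to 77526367, plus strand), the cofactor that binds H3K4-unmethylated histone H3 and stimulates DNMT3A, was the gene of the 8 that rose most. Single NGO cells had 0 to 88.6 CPM with a median of 10.3. The lowest, median and highest cells of GO1 were at 0, 42.8 and 249 CPM and those of GO2 at 0, 155.97 and 259 CPM. They were at 23.5, 94.2 and 176 CPM for GO3 and at 0, 17.8 and 121.1 CPM for FGO. The ranges of all 5 stages overlapped, yet 12 of 51 GO1 cells lay above every NGO cell, and 31 of 56 FGO cells lay below every GO3 cell. No UMI was found in 6 NGO, 14 GO1, 1 GO2, 0 GO3 and 9 FGO cells. In the sums the level rose 7.30-fold (6.66 to 8.001) from 21.03 CPM in NGO to 153.4 in GO1, and the means over cells gave 3.44-fold, or 4.24-fold without GO1 cells 42 to 51. The step from GO1 to GO2 (178 CPM) was 1.16-fold (1.11 to 1.21) in the sums and passed the size rule in the mean over cells, at 2.50-fold, or 2.03-fold without that run. From GO2 to GO3 (111.4 CPM) the ratio was 1.60-fold downward (1.54 to 1.66). The fall from GO3 to FGO (51.5 CPM) was 2.16-fold (2.07 to 2.26) in the sums and 3.19-fold in the mean over cells. Without FGO cells 38 to 56 the FGO level was 60.5 CPM, with a log2 ratio to GO3 of -0.88, short of 2-fold, and the means over cells gave 2.25-fold, past it. FGO stayed 2.45-fold (2.24 to 2.69) above NGO in the sums and 1.81-fold in the mean over cells, which is under the size rule.

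*Kdm1b* (chromosome 13, 47138868 to 47179982, plus strand), the oocyte H3K4 demethylase also known as LSD2, had its highest CPM before growth began and its lowest in GO2. The lowest, median and highest NGO cells had 197, 334 and 626 CPM. GO1 cells had 0, 92.6 and 365 CPM and GO2 cells 0, 37.2 and 94.6 CPM. GO3 cells had 38.2, 91.6 and 186 CPM and FGO cells 56.6, 122.6 and 292 CPM. The NGO cells stood almost apart from the others: 38 of 51 GO1 cells, all 26 GO2 cells, all 44 GO3 cells and 50 of 56 FGO cells lay below the lowest NGO cell. In the sums *Kdm1b* fell 3.72-fold (3.56 to 3.89) from 361 CPM in NGO to 96.9 in GO1, and 2.88-fold in the mean over cells. It fell a further 2.10-fold (1.96 to 2.25) to 46.2 CPM in GO2 and rose 2.06-fold (1.93 to 2.20) to 95.2 CPM in GO3, where 20 of 44 cells lay above every GO2 cell. These last 2 ratios lie near the limit of the rule, and with size factors by the median of ratios their log2 values were -0.88 and 0.89, short of 2-fold. Of the GO1 UMIs of *Kdm1b*, 30.0% were in 1 cell. Without the 10 deepest cells of each stage the log2 ratio from GO1 to GO2 was -1.16. The ratio from GO3 to FGO (125.96 CPM) was 1.32-fold (1.28 to 1.37). GO1 and GO3 did not differ beyond counting error, at 1.02-fold (0.970 to 1.07).

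*Kdm1a* (chromosome 4, 136106455 to 136158638, minus strand), or LSD1, the paralogous H3K4 demethylase that works with the CoREST corepressors, was low throughout. Its summed level rose 2.22-fold (1.88 to 2.63) from 8.21 CPM in NGO to 18.2 in GO1, and the later stages stood at 12.7, 12.9 and 11.3 CPM. The median cell had 7.03, 9.50, 13.2, 10.9 and 9.79 CPM from NGO to FGO. Cells overlapped widely, since 12 of 51 GO1 cells lay above the highest NGO cell (41.1 CPM) while 18 had no UMI. A GO1 cell lay above an NGO cell in 50.5% of pairs. The highest NGO cell held only 4 UMIs of the gene, and a shallow GO1 cell above it held 1, so this count depends on depth. Without the 10 deepest cells of each stage the log2 ratio was 0.65, short of 2-fold, and under the other ways of scaling or choosing cells it was 1.02 to 1.63. GO3 and GO2 did not differ beyond counting error, nor did GO2 and FGO. Of the UMIs of the *Kdm1b* and *Kdm1a* pair, *Kdm1b* held 97.8% (97.5 to 98.1) in NGO and, going up in size, 84.2% (82.8 to 85.4), 78.5% (76.3 to 80.6), 88.1% (87.2 to 88.9) and 91.8% (91.2 to 92.3). Its share in the median cell from NGO to FGO was 97.98%, 89.3%, 75.5%, 89.2% and 92.9%. *Kdm1b* had more UMIs than *Kdm1a* in every NGO, GO3 and FGO cell.

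*Setd2* (chromosome 9, 110435101 to 110521137, plus strand), which encodes the enzyme that trimethylates H3K36 during transcription elongation, was lowest in NGO in the sums and by the median cell. In the mean over cells NGO and GO2 stood level, at 27.4 and 27.3 CPM. The NGO mean was raised by 1 cell at 288 CPM, which held 19 UMIs of the gene among 66076, while the upper quartile of NGO was 27.4 CPM. The lowest, median and highest cells of NGO were at 3.03, 19.4 and 288 CPM and those of GO1 at 0, 41.6 and 188 CPM. They were at 10.1, 27.7 and 51.1 CPM for GO2, 16.1, 40.2 and 142.2 CPM for GO3 and 0, 33.5 and 91.8 CPM for FGO. The stages overlapped, and a GO1 cell lay above an NGO cell in 75.1% of all pairs of such cells. The summed level rose 2.32-fold (2.09 to 2.57) from 20.3 CPM in NGO to 47.1 in GO1. Of the GO1 UMIs of *Setd2*, 26.2% were in 1 cell, so this sum leans on it. Without the 10 deepest cells of each stage the log2 ratio was 1.21. The later stages stood at 26.7, 40.7 and 35.6 CPM, and none of these later steps passed the size rule in the sums. In the mean over cells the step from GO1 to GO2 was 2.18-fold downward and passed.

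*Nsd1* (chromosome 13, 55311143 to 55419686, plus strand), which encodes a methyltransferase that places up to dimethylation on H3K36, rose 2.20-fold (2.05 to 2.36) from 45.04 CPM in NGO to 98.98 in GO1. The lowest, median and highest cells of NGO were at 21.8, 42.002 and 151.3 CPM and those of GO1 at 0, 91.02 and 379 CPM. They were at 66.6, 126.4 and 222 CPM for GO2, 58.8, 101.1 and 285 CPM for GO3 and 24.3, 75.01 and 235 CPM for FGO. A GO1 cell lay above an NGO cell in 85.6% of pairs, although 3 GO1 cells lay below every NGO cell. The sums of the later stages were 110.1, 102.8 and 71.8 CPM, with FGO 1.43-fold (1.38 to 1.49) under GO3. GO3 and GO1 did not differ beyond counting error. The rise of *Setd2* and *Nsd1* was nearly equal, so *Setd2* took 31.1% (28.9 to 33.4) of the UMIs of the pair in NGO and 32.2% (30.8 to 33.7) in GO1. Its share was 19.5% (18.2 to 20.9) in GO2, and GO3 and FGO gave 28.4% (27.3 to 29.4) and 33.1% (32.03 to 34.3), so GO2 stood apart from the other stages beyond counting error. The median cell had a share of 30.2%, 30.7%, 18.1%, 29.8% and 31.4% from NGO to FGO, again lowest in GO2.

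*Cxxc1* (chromosome 18, 74375785 to 74381145, plus strand), also known as CFP1, passed the size rule in no step of the sums. Its summed level from NGO to FGO was 62.7 (59.6 to 65.9), 49.4 (46.8 to 52.2), 39.4 (36.97 to 41.9), 38.2 (36.5 to 39.9) and 46.7 (45.1 to 48.4) CPM. The median cell had 60.7, 10.9, 31.4, 31.4 and 33.9 CPM. GO1 cells were either without a UMI (19 of 51) or at up to 188 CPM, and the mean over GO1 cells was 2.67-fold under that of NGO, which passed the size rule, and 2.33-fold under it without GO1 cells 42 to 51. Summed over the 25 shallower GO1 cells *Cxxc1* stood at 10.7 CPM (6.003 to 17.7), and over the 26 deeper cells at 51.5 CPM (48.8 to 54.4), and without that run at 11.8 and 52.2 CPM.

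**Figure D2:**
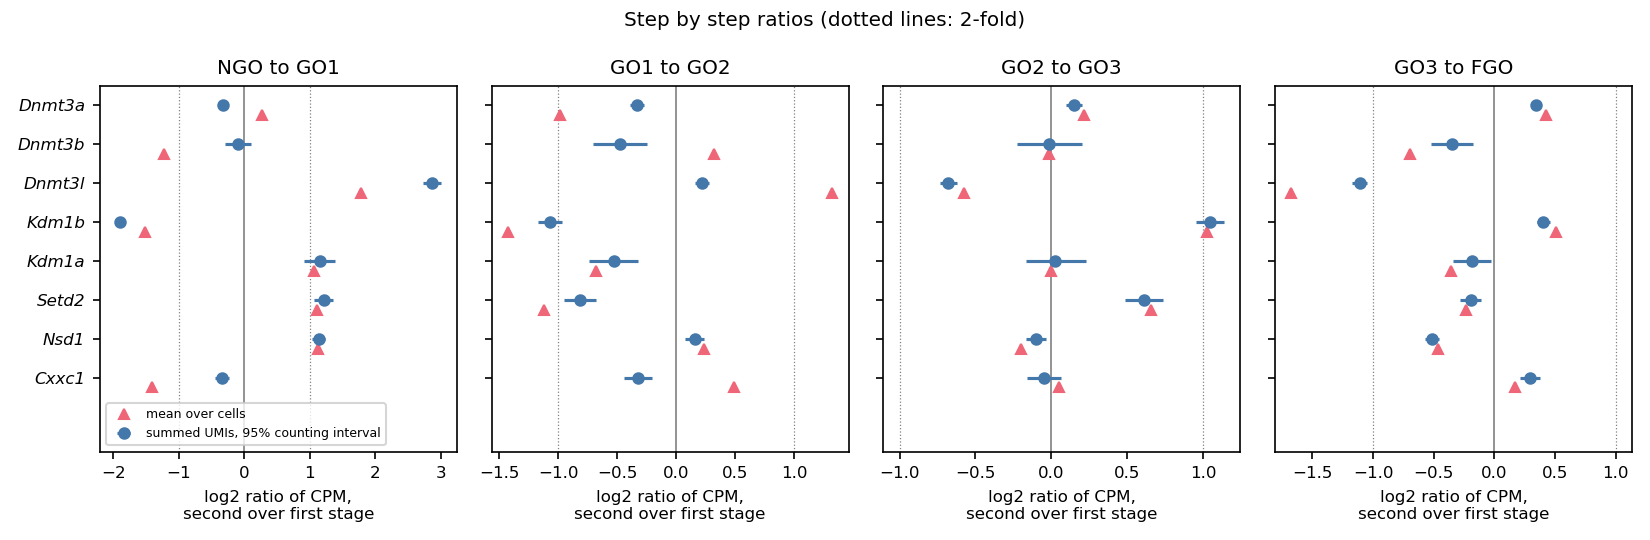
Ratio of each gene between consecutive stages on a log2 scale, 1 panel per step, with summed UMIs (circles, bars are 95% counting intervals) and the mean over cells (triangles). The 2 ways of weighting cells lie close together for *Kdm1a*, *Setd2* and *Nsd1* from NGO to GO1 and far apart there for *Dnmt3a*, *Dnmt3b*, *Dnmt3l* and *Cxxc1*.

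Depth of a cell moved with the level of some of the genes inside single stages. The Spearman correlation of *Dnmt3l* CPM with UMIs per cell was 0.21 over 46 NGO cells, 0.57 over 51 GO1 cells, 0.83 over 26 GO2 cells, 0.51 over 44 GO3 cells and 0.70 over 56 FGO cells. For *Cxxc1* it was 0.19, 0.44, 0.57, 0.42 and 0.49, and for *Dnmt3b* -0.24, 0.52, 0.33, 0.27 and 0.57, from NGO to FGO. *Nsd1* went the other way, at -0.19, -0.05, -0.57, -0.22 and -0.32. Zero counts in shallow cells enter these values, and cells share libraries and depth, so the correlations describe these cells and are given without a test. The summed *Dnmt3l* level was 30.7 CPM (22.3 to 41.4) in the shallower and 160 CPM (155.3 to 165) in the deeper GO1 cells. Without GO1 cells 42 to 51 these GO1 values were 45.01 and 162 CPM, and the GO1 correlation was 0.54 over 41 cells. The corresponding values were 114.2 and 191 CPM for GO2, 85.1 and 119.8 CPM for GO3, 12.9 and 58.2 CPM for FGO (22.7 and 64.3 CPM without cells 38 to 56), and 12.4 and 23.9 CPM for NGO. Deeper cells thus had more *Dnmt3l* per UMI in each of the 5 stages. Oocyte size within a stage, library and depth cannot be told apart in these data. Among the 21 GO1 cells and 36 NGO cells with 100000 to 1000000 UMIs, a range chosen after seeing the data, the log2 ratio of *Dnmt3l* from NGO to GO1 was 1.95, that of *Kdm1b* -1.44, that of *Setd2* 1.64 and that of *Nsd1* 1.24. In the same cells it was -1.18 for *Dnmt3b*, 1.25 for *Kdm1a* and -0.36 for *Dnmt3a*.

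**Figure D3:**
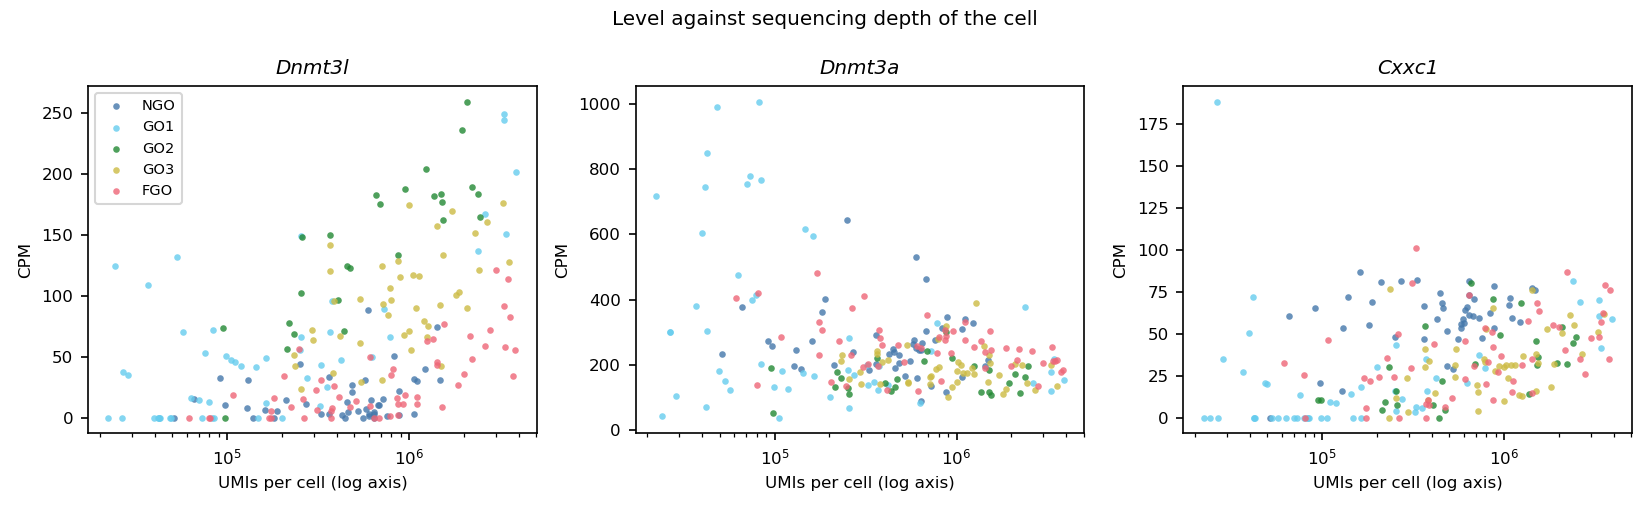
CPM of *Dnmt3l*, *Dnmt3a* and *Cxxc1* (vertical axes) against the UMIs of each cell (horizontal log axis), 1 point per cell, coloured by stage. The highest *Dnmt3l* values of GO1, GO2 and FGO sit among the deep cells. Shallow GO1 cells of 24102, 36795 and 53243 UMIs also reached 124.5, 108.7 and 131.5 CPM, on 3, 4 and 7 UMIs of the gene. The 8 highest *Dnmt3a* values, up to 1007 CPM, lie in GO1 cells 42 to 51, which held 22279 to 162906 UMIs.

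The balance of cofactor and enzyme differed between stages beyond counting error. *Dnmt3l* held 7.56% (6.95 to 8.20) of the summed *Dnmt3a* plus *Dnmt3l* UMIs in NGO. From GO1 to FGO it held 42.7% (41.7 to 43.7), 52.2% (51.1 to 53.3), 38.1% (37.3 to 38.9) and 18.4% (17.8 to 18.9). A share of this pair does not depend on the scaling between stages. The median cell had 3.65%, 20%, 45.7%, 32.9% and 6.92% from NGO to FGO, so GO2 was highest and NGO lowest by either measure. *Dnmt3l* had more UMIs than *Dnmt3a* in 9 of 26 GO2 cells, 6 of 51 GO1 cells, 2 of 44 GO3 cells and in no NGO or FGO cell. Without GO1 cells 42 to 51 the GO1 share was 45.4% in the sums and 25% in the median cell, and without FGO cells 38 to 56 the FGO share was 21.9% and 16.1%. In GO1 the share was 6.54% in the shallower and 45.4% in the deeper cells, whereas in GO2 it was 42.2% and 53.7%. The level of the pair was related differently in different stages, with Spearman correlations of 0.39, -0.45, 0.25, 0.08 and -0.47 over the cells of each stage from NGO to FGO, given without a test. The GO1 value was -0.09 without cells 42 to 51 and the FGO value -0.16 without cells 38 to 56. These runs were chosen after their values of both genes were seen, so weaker negative values without them follow from that choice.

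**Figure D4:**
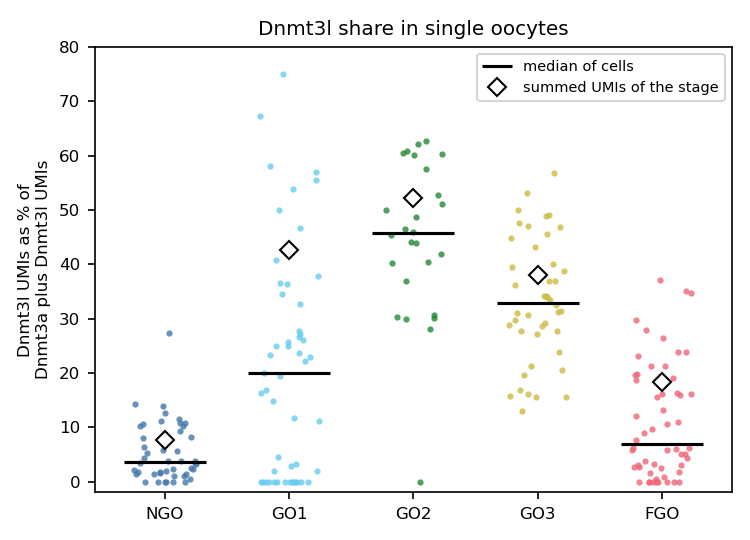
*Dnmt3l* UMIs as a percentage of *Dnmt3a* plus *Dnmt3l* UMIs in each cell (points), by stage, with the median cell (line) and the share of the summed UMIs (diamond). GO2 cells centre on 45.7%, and GO1 cells spread from 0 to 75%.

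Co-detection was compared after each cell was thinned to 20000 UMIs, since depth decides whether a low gene is seen. *Dnmt3a* and *Dnmt3l* were both detected in 13 of 46 NGO cells (28.3%, 15.99 to 43.5), 25 of 51 GO1 cells (49.02%, 34.8 to 63.4), 20 of 26 GO2 cells (76.9%, 56.4 to 91.03), 30 of 44 GO3 cells (68.2%, 52.4 to 81.4) and 18 of 56 FGO cells (32.1%, 20.3 to 45.96). Without thinning the shares were 86.96%, 72.5%, 96.2%, 100% and 83.9%. The thinned shares of NGO and FGO lay below those of GO1, GO2 and GO3. The intervals take cells as independent draws, although cells share libraries, so stages are not compared by them. The thinned shares lay close to the product of the 2 single shares, 28.3%, 50.6%, 74.6%, 67.8% and 33.3%. With *Dnmt3a* found in nearly all thinned cells they could hardly differ from it, so independence of the pair cannot be read from this. GO1 stood below GO3 in this share and above it in summed CPM, and no order of these stages is read from it. *Dnmt3a* alone was detected in 92.2% to 100% of thinned cells, and *Dnmt3l* alone in 28.3%, 54.9%, 80.8%, 72.7% and 33.9%. The low granulosa genes *Amh*, *Foxl2* and *Fshr* were detected in 0%, 0% to 2.17% and 0% to 7.14% of thinned cells. At this depth 1 UMI stands for 50 CPM, so genes as low as these were seldom detectable. Without thinning *Fshr* was in 50%, 23.5%, 42.3%, 84.1% and 58.9% of cells from NGO to FGO. The thinned shares of these genes do not show how much granulosa RNA the cells held.

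**Figure D5:**
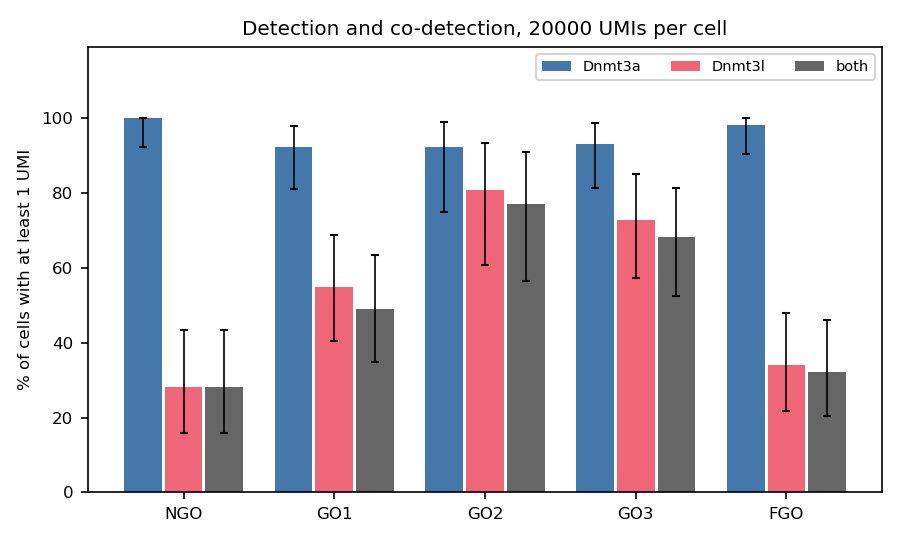
Percentage of cells with at least 1 UMI of *Dnmt3a*, of *Dnmt3l* and of both, by stage, after thinning every cell to 20000 UMIs. Error bars are exact 95% binomial intervals that take the cells of a stage as independent. The share with both follows the share with *Dnmt3l*, from 28.3% in NGO to 76.9% in GO2.

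*Dnmt3a* and *Kdm1b* were found together in 100% of thinned NGO cells, 72.5% of GO1, 65.4% of GO2, 77.3% of GO3 and 89.3% of FGO cells. *Dnmt3a* and *Nsd1* were found together in 60.9%, 72.5%, 80.8%, 84.1% and 80.4% of the cells of these stages. A thinned cell held UMIs of 4 of the 8 genes at the median in NGO, GO1 and FGO and of 5 in GO2 and GO3, and the most found in 1 cell, all 8, was in FGO.

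The genes around these 8 were followed in 4 lists, with levels and intervals from the sums. In the mean over cells every gene given with a ratio from these lists passed from NGO to GO1 in the same direction, except *Trim28* at 1.81-fold. Of the partners and opponents of DNA methylation, 7 of 10 were measured from NGO to GO1, with 2 higher and 2 lower. *Uhrf1*, which recruits maintenance methylation to hemimethylated DNA, fell 3.89-fold (3.80 to 3.99) from 1169 to 300.3 CPM. *Dnmt1*, the maintenance methyltransferase, fell 2.12-fold (2.09 to 2.16) from 1930 to 909 CPM. *Tet3*, a 5-methylcytosine dioxygenase, rose 2.76-fold (2.64 to 2.87), and *Trim28*, the corepressor that KRAB zinc finger proteins recruit, rose 2.23-fold (2.03 to 2.44). None of the list passed in a later step, and *Tdg* was listed at 0 UMIs in every stage.

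Of the H3K36 methyltransferases, demethylases and elongation partners, 1 of the 9 measured rose and 2 fell from NGO to GO1, and none passed in a later step. *Smyd2*, a lysine methyltransferase, fell 7.93-fold (7.09 to 8.91) from 101.4 to 12.8 CPM. *Kdm2b*, an H3K36 demethylase with a CXXC domain that binds unmethylated CpG, rose 4.27-fold (3.92 to 4.66), and *Kdm4b*, a demethylase of H3K9 and H3K36, fell 4.11-fold (3.28 to 5.18). Their median log2 ratio was 0.07 in that step.

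Among the subunits of the SET1 and MLL complexes, which place H3K4 methylation, 4 of the 12 measured rose and 1 fell from NGO to GO1. *Bod1l* rose 4.91-fold (4.53 to 5.33), the catalytic *Setd1a* 2.78-fold (2.27 to 3.42) and *Wdr82*, which joins SET1 to RNA polymerase II, 2.76-fold (2.52 to 3.03), while the shared core subunit *Ash2l* fell 2.70-fold (2.55 to 2.85). Their median log2 ratio was 0.50, and 1 gene fell from GO1 to GO2. Of the H3K4 demethylases and LSD partners, 1 of the 10 measured rose and 5 fell from NGO to GO1, beside 20.6% of all genes upward and 25.7% downward, and their median log2 ratio was -0.97, against -0.15 over all genes. In the mean over cells 1 rose and 7 fell, and of the SET1 and MLL subunits 5 rose and 3 fell. *Kdm5a*, an H3K4 demethylase, fell 10.1-fold (8.53 to 12.1) from 55.6 to 5.49 CPM, and *Hdac1*, a histone deacetylase of the CoREST complex, fell 7.07-fold (6.30 to 7.97) from 86.5 to 12.2 CPM (11.9-fold in the mean over cells) and was the 1 gene of the list that rose from GO3 to FGO. *Rcor1*, the CoREST scaffold that partners KDM1A, rose 6.14-fold (4.43 to 8.72) from 1.67 to 10.2 CPM, and *Rcor3* fell 4.50-fold (3.51 to 5.83). In each list the share that passed from NGO to GO1 is to be read against 46.3% over all genes.

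The genes whose summed profile over the 5 stages was most like that of *Dnmt3l*, out of 8670 others, were *Fam13c*, *Aldh1a2*, *Arrdc5*, *Adam32* and *Cox6a2*. Their root mean square distances to *Dnmt3l*, on centred log2(CPM + 1), were 0.058, 0.10, 0.10, 0.11 and 0.11. *Fam13c* had 63.5, 467, 510.5, 336 and 141.5 CPM from NGO to FGO. *Aldh1a2*, which makes retinoic acid, had 5.95, 44.6, 44.9, 31.7 and 13.5 CPM. In profiles made of the mean over cells these 5 genes ranked from 34 to 193, so the likeness depended on how cells were weighted.

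The strand setting of the authors' counting is not given in the sources used here, and reads of overlapping genes on opposite strands may then not be separable. *Dnmt3l* shares 1664 bp with *Aire*, *Kdm1b* 1239 bp with *Tpmt*, *Kdm1a* 4241 bp with *Luzp1*, *Dnmt3a* 2952 bp with *Gm10485* and *Dnmt3b* 837 bp with *7530422B04Rik*.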

How the data were processed

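Single-cell RNA-seq with UMIs of 223 oocytes of 5 stages, from 4 libraries, was used. The authors split reads by barcode, mapped the trimmed reads with Tophat to the transcriptome of mm9, kept 1 read per UMI, dropped cells with few genes, extreme totals or much spike-in RNA, and deposited UMI counts per gene and cell without normalization. The list of cell barcodes names no cell and was not used, and the DNA libraries (iscCOOL-seq) were not analysed here.

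For CPM, the UMIs of all cells in a stage were added up per gene and scaled by their total to 1000000. A gene passed when 2 stages differed at least 2-fold with at least 10 CPM in the higher one. This rule needs no replicates and gives no p-value. Intervals are exact Poisson for a sum, the binomial split for a ratio and Clopper-Pearson for a share, at 95%. The columns name no library, so counts per library could not be tested and barcodes shared by libraries could not be counted. No doublet caller was run on the cells, which were picked by hand. The 8 genes, the 4 lists and the markers were chosen with earlier results of these data known. All 8 genes are named, and of each list at most 4 genes past the rule in a consecutive step, by size of the log2 ratio. The 5 genes most like *Dnmt3l* and the marker genes are named as well. Alternatives were DESeq2 1.42.0 size factors and TMM factors (edgeR 4.0.16), both for scaling only, the mean over cells, subsets of cells by depth or number, thinned cells and other limits. Cell subsets by depth within a stage, the runs of cells 42 to 51 of GO1 and 38 to 56 of FGO, the range of 100000 to 1000000 UMIs and the expected co-detection over all draws were added after seeing the data. Positions are GENCODE vM1 on NCBIM37. RefSeq windows were found for 6 of the 8 genes and placed on NCBIM37 by exact match. Python 3.11.15 and R 4.3.3 were used.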

Additional observations from a re-analysis of the deposited data

How the results depend on the processing

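No paired analysis was possible because the cells of the count table carry no library or replicate number and no result comes from a test. The 8 ratios past the size rule kept their direction under all 12 ways of scaling or choosing cells, and 6 to 8 of the 8 stayed at least 2-fold. These are not 12 independent checks. Leaving out a run of cells changes only the steps that involve its stage, and the limit of 50000 UMIs left out GO1 cells only. Among all 32 ratios of the 8 genes, 25 to 32 kept their direction. The median log2 ratio of all genes from GO1 to GO2 was -0.11 with stage totals, 0.08 with DESeq2 size factors and 0.06 with TMM factors, and the share of all calls that were upward was 3.46%, 14.4% and 11.4%. From GO2 to GO3 the medians were 0.08, -0.07 and -0.01, and the shares 76.8%, 59.2% and 66.7%. From NGO to GO1 the medians were -0.15, -0.04 and 0.01. Where a value moved, the cause was not tested.

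Of the 8 genes, 5 passed from NGO to GO1 (4 up, 1 down), 7 in the mean over cells, in cells of 100000 to 1000000 UMIs and in the shallower cells (4 up, 3 down each), 6 without the 10 deepest cells (3 up, 3 down) and in thinned cells (4 up, 2 down), and 3 with a limit of 50 CPM. From GO1 to GO2 1 passed, 0 with either scaling factor, with 26 cells per stage or in the deeper cells, 2 with a limit of 1.5-fold, 3 in the mean over cells, in cells of 100000 to 1000000 UMIs or thinned to 20000 UMIs, 4 without the 10 deepest cells and 5 in the shallower cells. From GO2 to GO3 1 passed, 0 with either scaling factor or thinned cells and 3 at 1.5-fold. From GO3 to FGO 1 passed, and 0 without FGO cells 38 to 56, where the log2 ratio of *Dnmt3l* was -0.88.

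The *Dnmt3l* share of *Dnmt3a* plus *Dnmt3l* UMIs in NGO, GO1, GO2, GO3 and FGO was 5.37%, 21.2%, 44.7%, 33.4% and 11.1% as the mean over cells, 4.98%, 14.6%, 40.8%, 31.1% and 10.6% without the 10 deepest cells, 5.33%, 21.9%, 41.1%, 31.1% and 5.71% in cells of 100000 to 1000000 UMIs, 8.42%, 45.4%, 53.7%, 40.1% and 20.5% in the deeper cells, 4.74%, 6.54%, 42.2%, 31.1% and 4.90% in the shallower cells, and 6.27%, 16.9%, 45.1%, 29.2% and 9.81% when thinned. It was 45.4% in GO1 without GO1 cells 42 to 51 and 21.9% in FGO without FGO cells 38 to 56. With 26 cells per stage it was 6.47% in NGO, 45.8% in GO1 and 16.7% in FGO. GO2 was highest and NGO lowest under all of these. Co-detection of the pair in these stages was 47.8%, 73.7%, 96.2%, 97.7% and 51.8% at 50000 UMIs, without 13 GO1 cells, and 86.96%, 72.5%, 96.2%, 100% and 83.9% unthinned. With at least 2 UMIs of each it was 8.70% in NGO, 27.5% in GO1, 43.2% in GO3 and 10.7% in FGO. The expected share over all draws was 24.2%, 48.1%, 84.01%, 77.9% and 36.5%. In a cell of 20000 UMIs 1 UMI stands for 50 CPM, so lower levels were often not detectable.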
